A study of Mus musculus with 27 samples.

Results

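The genes described here are 35 genes of microglia and other macrophages, chosen by symbol and measured as the sum of all their transcripts. All 35 were found among the 30735 genes of the expression table, each under 1 gene identifier. The RNA came from C57Bl/6 mice carrying an alkaline phosphatase (AP) reporter in Brn3a (Pou4f1) or Brn3b (Pou4f2), transcription factor genes of retinal ganglion cells, the neurons that connect the eye to the brain. Cells from dissociated retina were captured on anti-AP magnetic beads, giving a bead-bound fraction labelled as AP-positive ganglion cells and an unbound supernatant (SN).

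KO libraries carried the AP allele over a null allele (Brn3bAP/KO or Brn3aAP/KO), and HET libraries the AP allele over a wild-type allele (Brn3bAP/WT or Brn3aAP/WT), so every retinal library had 1 AP allele. At postnatal day 3 (P3) there were 2 AP-positive libraries each of Brn3b KO, Brn3b HET, Brn3a KO and Brn3a HET, and 1 SN library of each of these genotypes. At embryonic day 15 (E15) there were 2 AP-positive libraries each of Brn3b KO and Brn3b HET, and 1 SN library of each. Wild-type brain at P3 gave 3 libraries of superior colliculus (SC), 3 of lateral geniculate nucleus (LGN), 1 of pretectal area (PTA) and 2 of the remaining brain. The labels call these last 2 libraries whole brain, while the protocol describes a pool of the sections left after dissection, so whether they also hold SC and LGN tissue is not settled by the sources used here. No label said that libraries of a group came from separate animals, so the p-values below measure the spread between libraries, which may be technical. Total estimated counts were 28905675 to 37394655 per retinal library and 10122962 to 13769685 per brain library. The genotype entry of Brn3a KO P3 AP-positive replicate 2 named Brn3b, against its title. Pou4f1 was at 16.7 and 10.98 CPM (counts scaled to the size of each library) in the 2 Brn3a KO libraries, against 486 and 444 CPM in the 2 Brn3a HET libraries, which fits the title. Pou4f2 was at 20.99 and 18.6 CPM in the Brn3b KO P3 libraries, against 190.5 and 289 CPM in the Brn3b HET P3 libraries.

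Microglia are the resident macrophages of the retina and brain. They enter the nervous system from the yolk sac during embryonic life, depend on the receptor Csf1r for survival, and in developing tissue engulf dying neurons and synaptic material. Their identity rests on the transcription factors Spi1 (PU.1), Irf8 and Sall1, and they read neuronal signals through receptors such as Cx3cr1 and P2ry12.

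All 35 genes were higher in the AP-positive fraction than in SN, at both ages. Their summed level was 1942 to 7350.3 CPM in the 8 P3 AP-positive libraries, against 11.8 to 45.6 CPM in the 4 P3 SN libraries. At E15 the sum was 1389 to 2044 CPM in the 4 AP-positive libraries, against 16.5 CPM in the Brn3b KO SN library and 14.01 CPM in the Brn3b HET SN library. Of these 2 SN sums Cd68 held 4.40 and 7.67 CPM, and Sall1 3.83 and 2.79 CPM. The 9 brain libraries held 269 to 434 CPM. The AP-positive sums did not overlap the SN sums at either age. In bulk RNA, fewer cells of a type and less RNA per cell cannot be told apart. CPM here are scaled by TMM (trimmed mean of M values) within retina and within brain separately, and the tissues were not tested against each other.

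**Figure D1:**
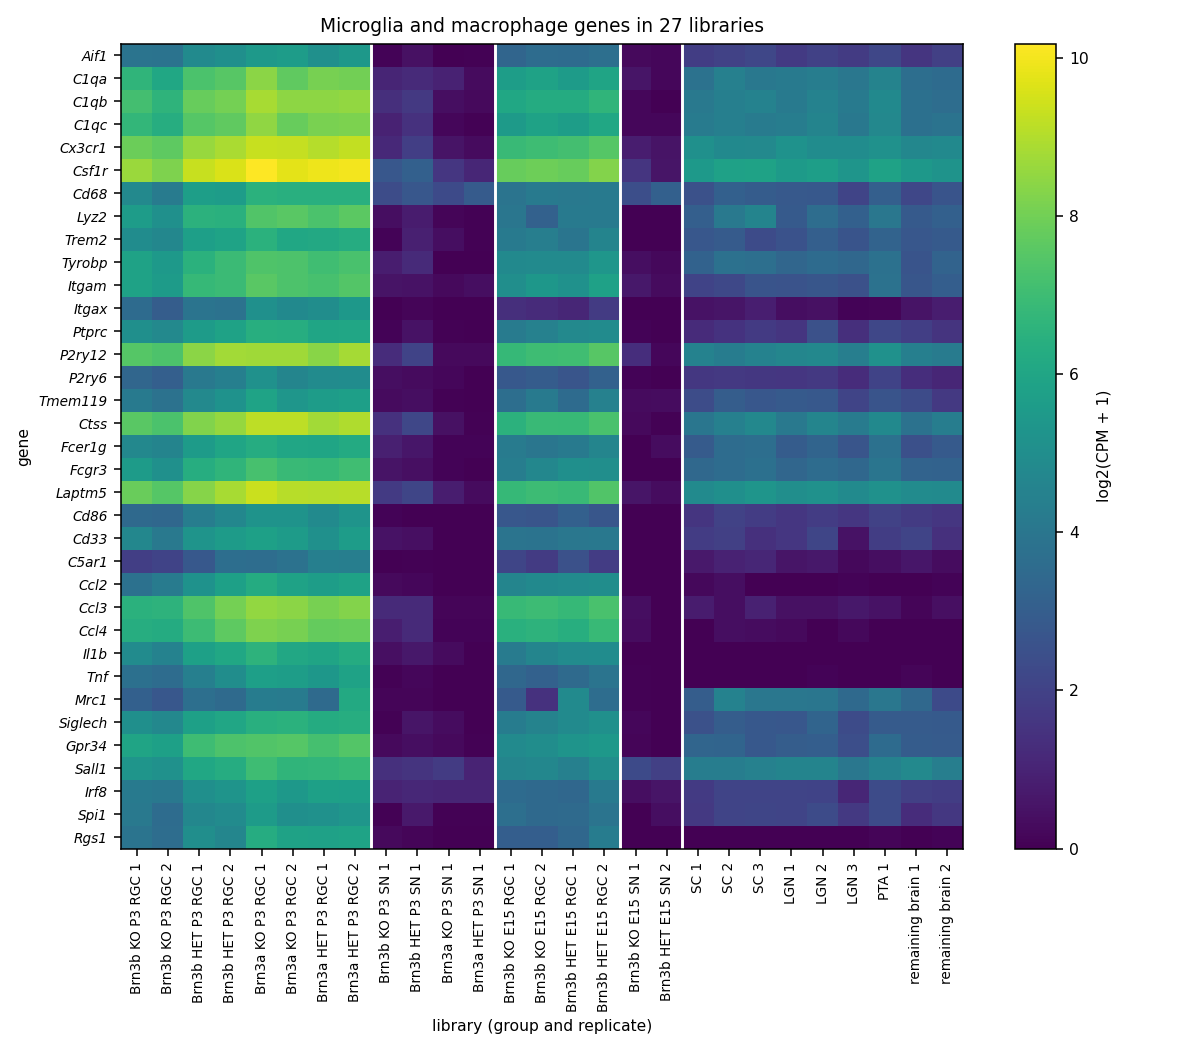
Level of each of the 35 genes (rows) in each of the 27 libraries (columns, named by group and replicate; RGC, AP-positive fraction; SN, supernatant) as log2(CPM + 1), in colour. White lines part the P3 AP-positive, P3 SN, E15 AP-positive, E15 SN and brain libraries, and the SN columns are darker than the AP-positive columns of the same age for every gene.

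On a scale that divides counts by transcript length, which allows genes to be compared, the order of levels in the P3 AP-positive libraries was led by the chemokine Ccl3, with a mean of 617 ± 271 length-scaled CPM (SD, n = 8). Ctss, a lysosomal cysteine protease, followed with 565 ± 225, then the chemokine Ccl4 with 559 ± 243 and the lysosomal membrane protein gene Laptm5 with 544 ± 197 length-scaled CPM. These neighbours in the order differed by less than their spread over libraries. That spread holds shifts shared by all members between genotypes, so it does not measure how firm the order is. The lowest mean was that of Mrc1, the mannose receptor, at 7.37 length-scaled CPM. Brn3a HET replicate 2 stood far above the other libraries for Mrc1, and without it the mean was 4.42 ± 1.60 length-scaled CPM (SD, n = 7), still the lowest. Next came C5ar1, the receptor for complement C5a, at 8.73 and the integrin gene Itgax at 10.96 length-scaled CPM.

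The first comparison asked which of these genes followed the bead-bound fraction. At P3, 35 of 35 passed the test as higher in AP-positive than in SN libraries, with a median log2 fold change of 8.03 (range 3.40 to 9.84), against a median of -0.03 over all 16954 genes tested, of which 27.3% were called higher. The test was the quasi-likelihood F-test of edgeR, with p-values adjusted by Benjamini-Hochberg over all genes and called at an adjusted p under 0.05, and all edgeR values below come from it. Every AP-positive library exceeded every SN library for 35 of the 35, as it did for 13.7% of all genes. Members with few SN counts passed the filter on low counts mainly through the AP-positive libraries. They could be called higher but hardly lower. For each gene below, P3 AP-positive values are the lowest, median and highest of 8 libraries, and P3 SN values stand in the order Brn3b KO, Brn3b HET, Brn3a KO, Brn3a HET.

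Among the receptors, Csf1r, the receptor for the survival factors Csf1 and Il34, had 296, 829 and 1161 CPM in the P3 AP-positive libraries, against 5.84, 7.75, 2.04 and 1.13 CPM in SN. The lowest AP-positive library was far above the highest SN library. Its log2 fold change was 7.41 ± 0.54 (SE; edgeR adjusted p = 1.44e-07). Cx3cr1, the fractalkine receptor, had 199, 501 and 638 CPM in AP-positive libraries, against 1.24, 2.70, 0.454 and 0.225 CPM in SN, and a log2 fold change of 8.55 ± 0.50 (edgeR adjusted p = 1.52e-08). P2ry12, an ADP receptor that guides microglial processes, had 159, 381 and 452 CPM in AP-positive libraries, against 1.43, 3.19, 0.198 and 0.197 CPM in SN. For all of these, the 2 Brn3b SN libraries were above the 2 Brn3a SN libraries. P2ry6, a UDP receptor, and Gpr34, a lysophosphatidylserine receptor, had log2 fold changes of 6.84 and 9.36.

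C1qa, C1qb and C1qc encode the chains of C1q, the complement protein that opens the classical pathway and tags synapses. They lie side by side on chromosome 4 (GRCm38, deposited coordinates): C1qb at chr4:136880129-136886187, C1qc at chr4:136889804-136893065 and C1qa at chr4:136895917-136898803, all on the minus strand. C1qb had 96.5, 308 and 457 CPM in the P3 AP-positive libraries, against 1.59, 2.27, 0.312 and 0.197 CPM in SN, with a log2 fold change of 7.87 ± 0.53. No SN library reached an AP-positive one. The other chains had log2 fold changes of 7.66 for C1qa and 8.08 for C1qc. Together they made up 12.5 to 15.7% of the 35-gene sum in P3 AP-positive libraries and 11.1 to 12.3% in E15 AP-positive libraries.

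Trem2, a lipid-sensing receptor, and Tyrobp, the adaptor that carries its signal, were at 25.02, 62.8 and 89.1 CPM and 44.5, 128 and 166 CPM in P3 AP-positive libraries. In SN, Trem2 was at 0.0793, 0.858, 0.284 and 0.0282 CPM and Tyrobp at 0.766, 1.35, 0 and 0 CPM. Tyrobp had no count in either Brn3a SN library, and no SN library reached an AP-positive one for either gene. The Fc receptor genes Fcer1g (the shared signalling chain) and Fcgr3 had log2 fold changes of 6.99 and 8.63. Siglech and Cd33, sialic acid-binding lectins, had 8.22 and 7.62, and the phagocyte integrin Itgam and the leukocyte phosphatase Ptprc (CD45) had 8.38 and 8.65.

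Some members had almost no SN counts. Itgax had 3 counts and Cd86, a costimulatory ligand, 3 counts over the 4 P3 SN libraries. The ratio of the AP-positive mean to pooled SN was 1056 (exact Poisson 95% interval 361 to 5122, counting error only) for Itgax and 1196 (exact Poisson 95% interval 409 to 5799.7, counting error only) for Cd86. C5ar1, with 1 SN count, had a ratio of 1552 (exact Poisson 95% interval 278 to 61282, counting error only).

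At the other end stood Cd68, a lysosomal glycoprotein of phagocytes, with 18.03, 67.8 and 90.7 CPM in P3 AP-positive libraries, against 4.10, 5.73, 3.83 and 6.65 CPM in SN, the highest mean P3 SN level of any member. Its log2 fold change of 3.40 ± 0.21 was the lowest of the 35. Sall1, a zinc-finger factor of microglial identity, had 34.3, 89.9 and 129 CPM in AP-positive libraries, against 1.69, 1.87, 2.38 and 1.01 CPM in SN, and Irf8, an interferon regulatory factor of myeloid development, 15.9, 39.8 and 54.9 CPM in AP-positive libraries, against 1.03, 1.16, 1.05 and 1.10 CPM in SN. These were the 3 members with the smallest differences, and still no SN library reached an AP-positive one. Spi1, the ETS factor PU.1, had a log2 fold change of 7.28. Irf8 overlaps another annotated gene, Gm20388, on the same strand, and the counting's use of strand is not given in the sources used here, so its reads may be shared.

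The inducible genes had differences of similar size. Ccl3 had 90.8, 267 and 365 CPM in P3 AP-positive libraries, against 1.32, 1.29, 0.113 and 0.113 CPM in SN, and the proinflammatory cytokine genes Il1b and Tnf had log2 fold changes of 7.55 and 9.32. Ccl2, a monocyte chemokine, had 8.92, Ccl4 had 8.23, and Rgs1, a regulator of G protein signalling, had 8.73. Of the remaining members, Aif1 (Iba1, an actin-bundling protein) had 7.96, Tmem119, a microglial membrane protein, 7.82, and Lyz2, lysozyme, 8.43 on the log2 scale. Mrc1, known from macrophages of vessels and meninges, had 8.18.

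Promoter sequence from RefSeq (GRCm38.p6, 250 bases before to 50 after the start site) was matched for 24 of the 35 genes. The core of the PU.1 site, GAGGAA on either strand, was in 15 of the 24 genes (62.5%), and in 31.3% of all 27025 genes with a promoter entry. The ETS-IRF composite, which starts with the ETS core GGAA and can overlap a PU.1 core, was in 1 of the 24 (4.17%; Cd68), against 3.16% of all genes. TATAAA was in 6 of the 24, against 15.7% of all. A match is a run of letters, not a measured binding site. The 250 bases before the start are shown for a phagocyte integrin, a complement chain and a chemokine that carry the PU.1 core near their start, which is in capitals (TTCCTC is the core read on the other strand).
Itgam (chr7:128062390-128062639, plus strand): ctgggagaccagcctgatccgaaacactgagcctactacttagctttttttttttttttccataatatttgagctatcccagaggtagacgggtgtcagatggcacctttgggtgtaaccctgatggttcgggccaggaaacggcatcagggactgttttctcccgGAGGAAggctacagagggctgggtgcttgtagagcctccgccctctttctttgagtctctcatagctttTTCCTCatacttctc
C1qb (chr4:136886201-136886450, minus strand): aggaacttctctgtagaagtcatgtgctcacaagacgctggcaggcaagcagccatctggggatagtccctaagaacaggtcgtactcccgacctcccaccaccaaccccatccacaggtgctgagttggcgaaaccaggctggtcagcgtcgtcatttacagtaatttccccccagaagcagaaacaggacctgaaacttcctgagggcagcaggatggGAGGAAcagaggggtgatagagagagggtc
Ccl3 (chr11:83649379-83649628, minus strand): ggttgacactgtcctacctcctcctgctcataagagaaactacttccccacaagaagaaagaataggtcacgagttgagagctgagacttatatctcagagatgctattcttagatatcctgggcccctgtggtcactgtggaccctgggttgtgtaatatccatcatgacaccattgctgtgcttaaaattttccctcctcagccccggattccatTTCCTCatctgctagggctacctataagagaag

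At E15, 35 of 35 members were again called higher in the AP-positive fraction, against 13.4% of all genes tested. Of the members, 9 had no count in either E15 SN library, so their folds are lower bounds against 3 counts over the group. These 9 passed the filter on low counts mainly through the AP-positive libraries, and could be called higher but hardly lower. With those at their bound the median log2 fold change was 7.96, and with fitted values for all it was 8.81, against -0.01 over all genes. Lyz2 was at least 337-fold higher, Trem2 at least 439.8-fold, Cd33 at least 353-fold, Ccl2 at least 664-fold and Il1b at least 602-fold higher in AP-positive than in SN libraries. Csf1r was at 221 and 244 CPM in Brn3b KO and 223 and 314 CPM in Brn3b HET AP-positive libraries, against 1.96 and 0.502 CPM in the KO and HET SN libraries. Cd68 again differed least, with 14.04 and 17.02 CPM in KO and 16.3 and 17.3 CPM in HET AP-positive libraries, against 4.40 and 7.67 CPM in the KO and HET SN libraries, a log2 fold change of 1.42 ± 0.26 (edgeR adjusted p = 0.00254). In the same comparison all 31 other microglia and macrophage genes rose, and ganglion cell markers rose for 8 of 16. Of the 31, 2 had no count in either E15 SN library, so they too could hardly be called lower. Erythroid markers summed to 0.367 to 11.2 CPM in AP-positive libraries, against 84.8 to 244 CPM in SN. Their part in the members' difference was not tested.

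The difference between fractions itself differed between the ages for 2 of the 35 members, tested as Brn3b AP-positive over SN at P3 minus the same at E15, where the P3 SN term held all 4 P3 SN libraries, Brn3a ones included. Cd68 gave 1.29 ± 0.31 (edgeR adjusted p = 0.0290) and Sall1 1.97 ± 0.32 (edgeR adjusted p = 0.00615), both larger at P3. By edgeR 0 members were smaller, with 4 at an unadjusted p under 0.05. Here and below, counts at an unadjusted p, by DESeq2, in another fit or with 1 library left out stand without the share of all genes in that setting. Over all genes 3.71% were called larger and 3.16% smaller. DESeq2 called 2 members smaller, Trem2 and Il1b, both at 0 in E15 SN. Sall1 was called in every omission of 1 library. The larger calls became 1, Sall1 alone, without Brn3a KO P3 SN, Brn3b KO P3 SN, Brn3b HET E15 SN, Brn3b KO P3 AP-positive replicate 1, Brn3b HET P3 AP-positive replicate 1, Brn3b KO E15 AP-positive replicate 1 or 2, or Brn3b HET E15 AP-positive replicate 1. They were 3, with Aif1, without Brn3b HET P3 SN, and Il1b was called smaller without Brn3a HET P3 SN.

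Within SN, 6 members were higher at P3 than at E15 (C1qb, Ctss, Il1b, Irf8, Lyz2 and Trem2) and 1, Sall1, was lower, where 15.6% and 17.5% of all genes were called. The P3 SN group pooled Brn3b and Brn3a libraries and the E15 SN group held Brn3b only, so the test mixes age with the reporter allele. Lyz2, Trem2 and Il1b had no count at E15. Against 3 counts over the E15 group they were at least 7.05-fold, 7.05-fold and 6.71-fold higher in pooled P3 SN. Sall1 was at 1.69, 1.87, 2.38 and 1.01 CPM in the 4 P3 SN libraries, against 3.83 and 2.79 CPM in the E15 KO and HET SN libraries, so every P3 library was below both E15 libraries. C1qb was at 1.59, 2.27, 0.312 and 0.197 CPM at P3, against 0.142 and 0 CPM at E15. The count of higher calls turned on single libraries: it was 16 without the Brn3a HET P3 SN library, 13 without the Brn3a KO P3 SN library, 1 without the Brn3b HET E15 SN library, and 0 in a fit of SN libraries alone. The lower call for Sall1 was lost without the Brn3b KO E15 SN library, and without the Brn3b HET P3 SN library there were 2 lower calls. At P3 the members' sum was 30.4 and 45.6 CPM in the Brn3b KO and HET SN libraries, against 14.3 and 11.8 CPM in the Brn3a KO and HET SN libraries, with 1 library of each genotype and no test. Of these sums Cd68 held 4.10 and 5.73 CPM in the Brn3b KO and HET libraries, and 3.83 and 6.65 CPM in the Brn3a KO and HET libraries. Sall1 held 1.69 and 1.87 CPM in the Brn3b KO and HET libraries, and 2.38 and 1.01 CPM in the Brn3a KO and HET libraries.

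**Figure D2:**
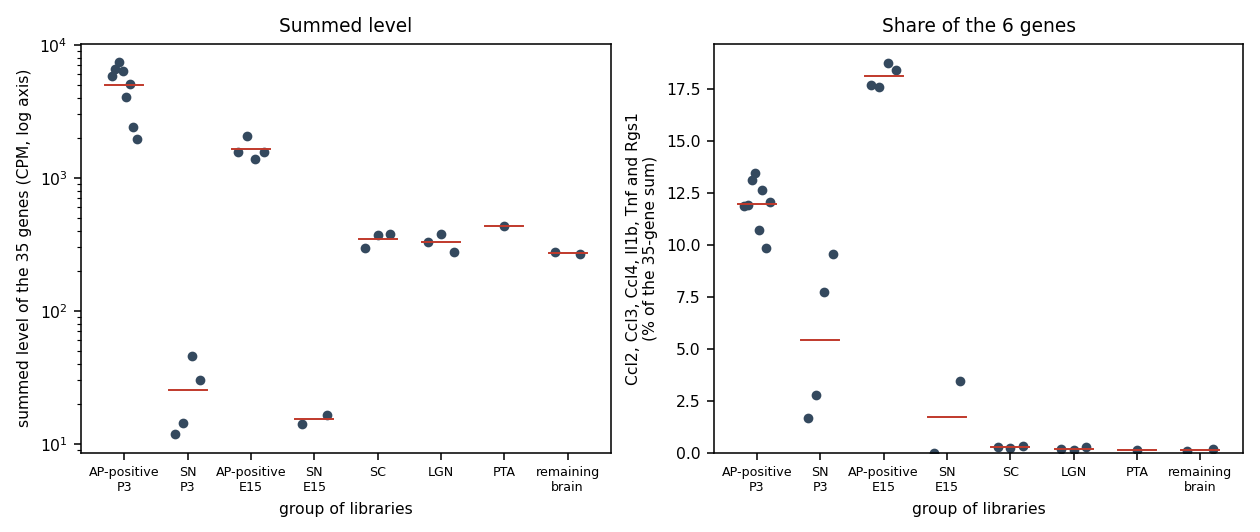
Left, summed CPM of the 35 genes per library (log axis); right, percent of that sum from Ccl2, Ccl3, Ccl4, Il1b, Tnf and Rgs1. Points are libraries and red lines group means; the AP-positive P3 libraries lie at 1942 to 7350.3 CPM, and the 6 genes make up 0.0642 to 0.304% in the brain libraries.

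In the AP-positive fraction of Brn3b KO retinas 13 of 35 members were called higher at P3 than at E15, with a median log2 fold change of 0.61 against 0.03 over all genes, of which 14.4% were called higher. Itgax was highest, with 10.9 and 7.12 CPM at P3, against 1.62 and 1.41 CPM at E15 (2.59 ± 0.36 on the log2 scale), followed by Lyz2 with 1.89 ± 0.28. Ccl2, Ccl3 and Ccl4 had negative values, and none was called in the edgeR fit. Ccl2 was at 12.9 and 18.1 CPM at P3, against 23.9 and 27.8 CPM at E15 (-0.72 ± 0.24, edgeR adjusted p = 0.0542), Ccl3 had -0.35 and Ccl4 -0.19. The count of 13 was 3 without Brn3b KO E15 replicate 1, 7 without Brn3b KO E15 replicate 2 and 4 without Brn3b KO P3 replicate 1. Ccl2 was called lower with the replicate block, without the count filter, with DESeq2 and without Brn3b KO P3 replicate 2. Ganglion cell markers summed to 1680.3 and 2000.2 CPM in the P3 libraries, against 7225 and 8369 CPM in the E15 libraries. Dissociation stress genes summed to 1778 and 2385 CPM at P3, against 1331 and 1635 CPM at E15, with 5 of 13 higher and 1 lower. Their part in the result was not tested.

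In the AP-positive fraction of Brn3b HET retinas 32 of the 35 were called higher at P3 than at E15 and 0 lower, with a median log2 fold change of 1.42 against 0.01 over all 16673 genes tested, of which 16.6% were called higher and 12.3% lower. Every P3 library exceeded every E15 library for 34 of the 35, and for 32.8% of all genes. Itgax had 13.9 and 13.3 CPM at P3, against 1.15 and 2.41 CPM at E15, and the highest log2 fold change, 2.94 ± 0.36 (edgeR adjusted p = 4.88e-04). Lyz2 had 93.02 and 87.5 CPM at P3, against 17.3 and 16.7 CPM at E15, a log2 fold change of 2.42 ± 0.28 (edgeR adjusted p = 4.06e-04). Neither gene's libraries overlapped between ages. Gpr34 rose by 1.86, Cd86 by 1.75, C1qc by 1.73 and Tyrobp by 1.68 on the log2 scale.

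Among the chemokines, Ccl3 had 166 and 264 CPM in HET libraries at P3, against 113 and 153 CPM at E15, with a log2 fold change of 0.70 ± 0.22 (edgeR adjusted p = 0.0376), and Ccl4 had 0.75 ± 0.22. The members not called were Ccl2 (0.57), Tmem119 (0.98) and Mrc1 (-0.83). Mrc1 was at 12.03 and 10.4 CPM at P3, against 28.7 and 11.50 CPM at E15, and the ages overlap. In the same comparison 28 of 31 other microglia and macrophage genes rose, and 1 of 8 border-associated macrophage markers, Ms4a7, at 5.11 CPM at P3 and 0.906 CPM at E15 (edgeR adjusted p = 0.0365). Ganglion cell markers summed to 4271 and 6076 CPM in the P3 libraries, against 7144 and 12197 CPM in the E15 libraries, with 3 of 16 higher and 6 lower. Progenitor and Mueller glia markers summed to 1246 and 1535 CPM at P3, against 1718 and 4015 CPM at E15, with 1 of 12 higher and 4 lower. Dissociation stress genes summed to 1925 and 2427 CPM at P3, against 1096 and 1588 CPM at E15, with 7 of 13 higher. The part of these lists in the result was not tested. Whether the change with age differed between KO and HET was tested as an interaction: 0 of 35 members passed in edgeR, 23 had an unadjusted p under 0.05, and DESeq2 called 3 (Cd68, Ccl2 and Gpr34, all lower). By edgeR 0.186% of all genes were called lower in that test at an adjusted p. That share is not a background for the unadjusted or DESeq2 counts.

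**Figure D3:**
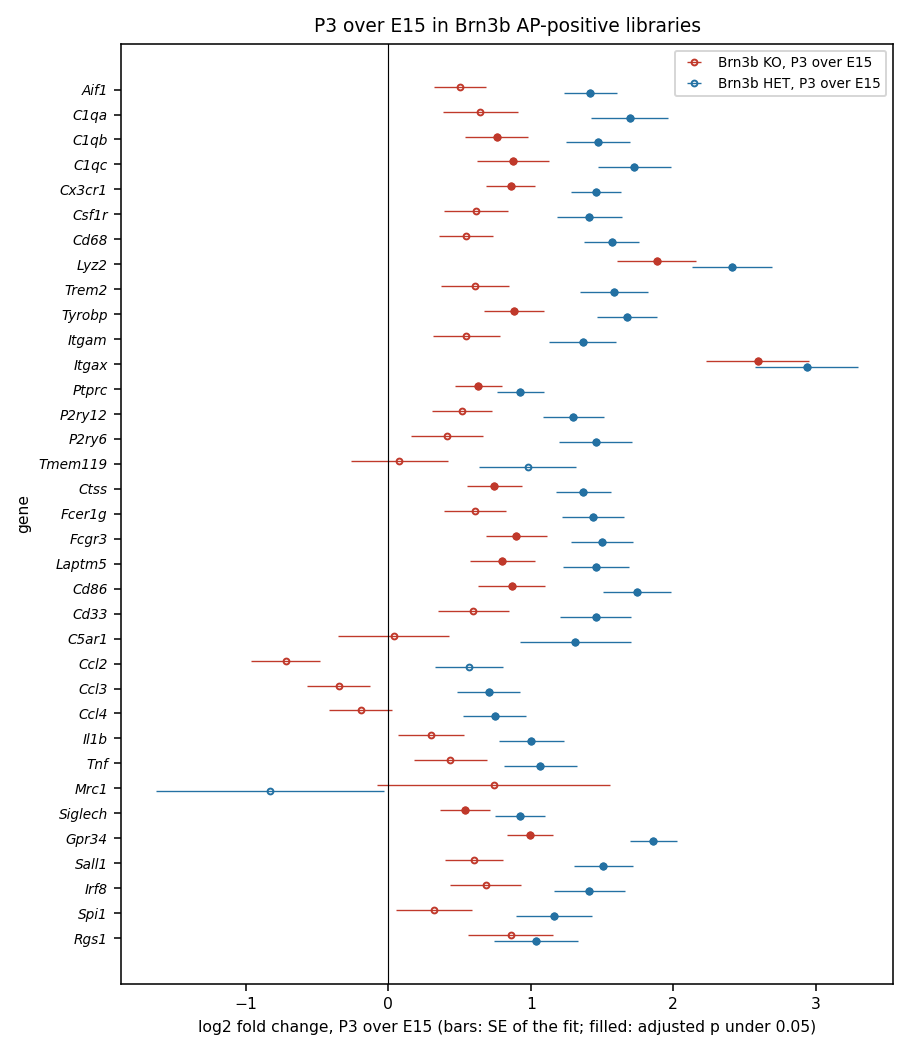
Log2 fold change, P3 over E15, of each gene in AP-positive libraries of Brn3b KO and Brn3b HET (2 libraries per age and genotype; bars, SE of the fit; filled points, adjusted p under 0.05). Itgax (2.59 in KO, 2.94 in HET) and Lyz2 stand to the right, and Ccl2 lies at -0.72 in KO and 0.57 in HET.

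In Brn3b KO retinas at P3, 24 of the 35 members fell relative to Brn3b HET and 0 rose, with a median log2 fold change of -1.06 (range -1.61 to -0.58), against 0.01 over all genes, of which 3.15% were called lower and 0.264% higher. Every KO library was below every HET library for 35 of 35, as for 28.7% of all genes. The summed level was 2423 and 1942 CPM in KO libraries, against 4031 and 5063 CPM in HET libraries. P2ry12 had 179.8 and 159 CPM in KO, against 341 and 438 CPM in HET (-1.19 ± 0.21 on the log2 scale, edgeR adjusted p = 0.0236). Gpr34 had 60.5 and 54.8 CPM in KO, against 128 and 163 CPM in HET (-1.33 ± 0.16, edgeR adjusted p = 0.0192). Ccl2 had 12.9 and 18.1 CPM in KO, against 35.1 and 53.7 CPM in HET (-1.51 ± 0.25, edgeR adjusted p = 0.0197). In all of these the groups did not overlap.

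Log2 fold changes of other called members were Csf1r -1.001, Cx3cr1 -0.98, C1qb -1.03, Tyrobp -1.06, Fcgr3 -1.15, Cd68 -1.14, Irf8 -1.07, Sall1 -0.96 and Il1b -1.22. The 11 members not called were C1qa, C1qc, C5ar1, Cd33, Itgax, Laptm5, Lyz2, Mrc1, Rgs1, Spi1 and Tmem119, with log2 fold changes of -1.61 (C5ar1) to -0.58 (Itgax). The calls rested on the pooled spread and on single libraries: the count was 0 in a fit of the 4 compared libraries alone, 0 without Brn3b HET replicate 2, 0 without Brn3b KO replicate 1 or 2, and 20 without Brn3b HET replicate 1.

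Other transcripts moved with these. Retinal ganglion cell markers, 16 genes such as Slc17a6 and Gap43, summed to 1680.3 and 2000.2 CPM in the Brn3b KO P3 libraries, against 4271 and 6076 CPM in the HET libraries, and 13 of 16 fell (median -1.64). Progenitor and Mueller glia markers summed to 1649 and 3145 CPM in KO, against 1246 and 1535 CPM in HET, with 0 of 12 called. Their part in the result was not tested. Of 31 other microglia and macrophage genes, 18 fell and 0 rose (median -1.04). Among 12 ligands and counter-receptors of microglial receptors, 3 fell. Csf1, a Csf1r ligand, averaged 38.2 CPM in KO and 82.8 CPM in HET (log2 fold change -1.11). Cx3cl1, the Cx3cr1 ligand fractalkine, averaged 9.58 CPM in KO and 24.98 CPM in HET (-1.37), and Tgfb1, a growth factor that maintains microglia, had -1.38. Cd200, a neuronal ligand that restrains microglia, had -1.04 and was not called.

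**Figure D4:**
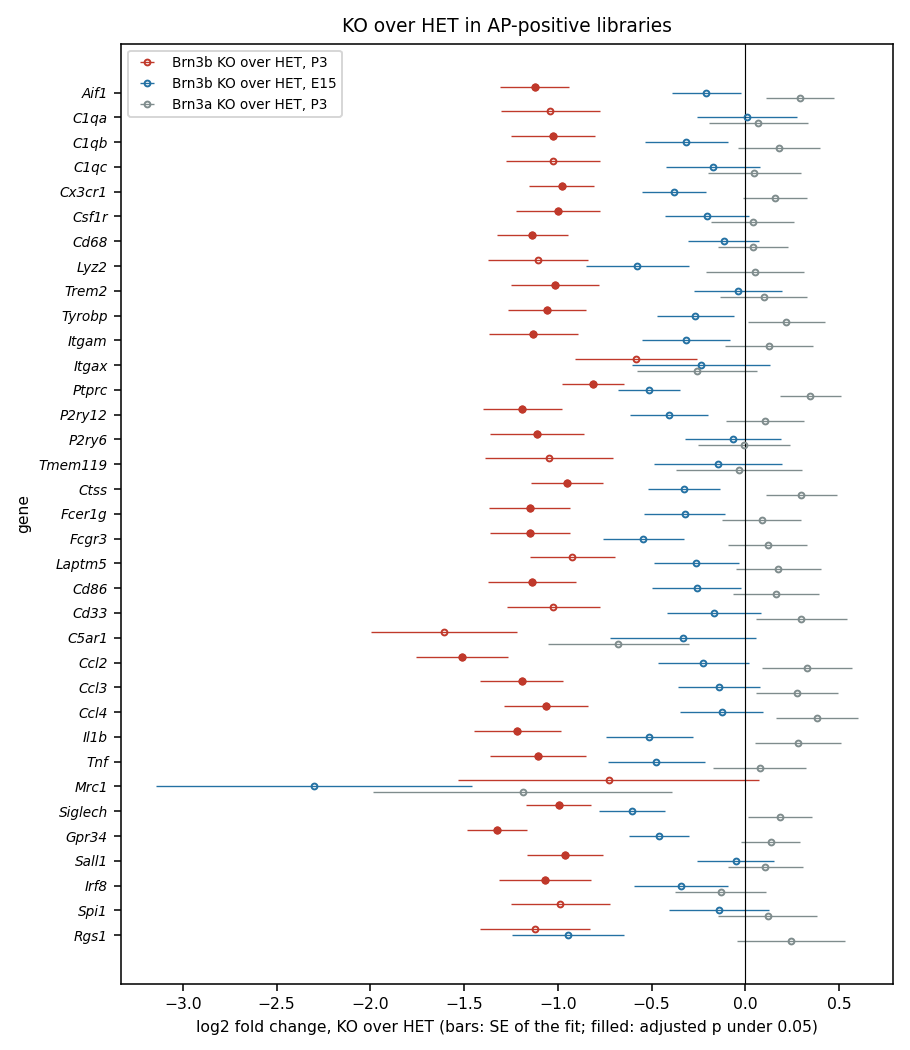
Log2 fold change, KO over HET, of each gene in AP-positive libraries for Brn3b at P3, Brn3b at E15 and Brn3a at P3 (2 libraries per group; bars, SE of the fit; filled points, adjusted p under 0.05). Medians are -1.06, -0.27 and 0.12.

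At E15, 0 of 35 members were called between Brn3b KO and HET by edgeR or DESeq2, with 6 at an unadjusted p under 0.05 and a median log2 fold change of -0.27. Over all genes 1.18% were called lower and 0.666% higher. Csf1r was at 221 and 244 CPM in KO and 223 and 314 CPM in HET libraries. Mrc1 had the most negative value, -2.30 ± 0.84, from 6.44 and 1.74 CPM in KO and 28.7 and 11.50 CPM in HET (edgeR adjusted p = 0.288).

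Loss of Brn3a at P3 gave 0 calls among the 35 in edgeR and in DESeq2, 0 at an unadjusted p under 0.05, and a median log2 fold change of 0.12, where 0.012% of all genes were called higher and 0.006% lower. P2ry12 was at 421 and 419.6 CPM in Brn3a KO and 335 and 452 CPM in Brn3a HET libraries, which overlap. Mrc1 was at 18.4 and 17.8 CPM in Brn3a KO and 10.3 and 72.3 CPM in Brn3a HET, the second HET library standing far above the rest. The KO effect in Brn3b minus that in Brn3a was called for 0 members in edgeR, with 31 at an unadjusted p under 0.05, all lower, and for 19 in DESeq2. In edgeR 0.006% of all genes were called lower there at an adjusted p. That share is not a background for the 31 unadjusted or the 19 DESeq2 members.

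Compared directly at P3, 34 of 35 members were lower in Brn3b KO than in Brn3a KO AP-positive libraries, all but Mrc1, with a median log2 fold change of -1.71 against 0.01 over all genes, of which 19.2% were called lower. Csf1r was at 406 and 296 CPM in Brn3b KO, against 1161 and 879 CPM in Brn3a KO (-1.54 ± 0.23, edgeR adjusted p = 0.00152). Rgs1 was at 14.2 and 11.6 CPM in Brn3b KO, against 78.1 and 56.6 CPM in Brn3a KO (-2.38 ± 0.30). The groups did not overlap for either gene. Ganglion cell markers summed to 1680.3 and 2000.2 CPM in Brn3b KO, against 7639.6 and 10677 CPM in Brn3a KO, with 16 of 16 lower. Progenitor and Mueller glia markers summed to 1649 and 3145 CPM in Brn3b KO, against 962 and 1116 CPM in Brn3a KO. Their part in the result was not tested.

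Between the HET genotypes 2 of 35 members were lower in Brn3b than in Brn3a, where 1.82% of all genes were called lower, and the members' median log2 fold change was -0.45. Cd68 was at 51.3 and 48.1 CPM in Brn3b HET, against 85.9 and 85.5 CPM in Brn3a HET (-0.79 ± 0.19, edgeR adjusted p = 0.04997). Itgax was at 13.9 and 13.3 CPM in Brn3b HET, against 30.8 and 42.6 CPM in Brn3a HET (-1.43 ± 0.33, edgeR adjusted p = 0.0450). P2ry12 had a log2 fold change of -0.01. Both calls were lost when any 1 of the 4 libraries (Brn3b HET replicate 1 or 2, Brn3a HET replicate 1 or 2) was left out, and 11 members were called in a fit of these libraries alone. Ganglion cell markers summed to 4271 and 6076 CPM in Brn3b HET, against 9769.8 and 10515 CPM in Brn3a HET. Erythroid markers summed to 18.9 and 53.6 CPM in Brn3b HET, against 177 and 285 CPM in Brn3a HET. Progenitor and Mueller glia markers summed to 1246 and 1535 CPM in Brn3b HET, against 899.8 and 915 CPM in Brn3a HET. Their part in the result was not tested.

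In brain at P3, 28 of the 35 members had enough counts to be tested; Itgax, Ccl2, Ccl3, Ccl4, Il1b, Tnf and Rgs1 did not. By edgeR 0 of 28 were called in SC against LGN (1 at an unadjusted p under 0.05, 0 by DESeq2), 0 in SC against the remaining brain (9 unadjusted, 1 by DESeq2, C1qb) and 0 in LGN against the remaining brain (3 unadjusted, 1 by DESeq2, C1qb). Over all genes 4.41%, 3.19% and 5.76% were called higher in these comparisons, and 5.78%, 3.75% and 5.17% lower. The summed level was 295, 370.0 and 379 CPM in SC, 331, 375 and 279 CPM in LGN, 434 CPM in the single PTA library and 277 and 269 CPM in the remaining brain. C1qb was at 16.5, 20.1 and 21.6 CPM in SC and 16.9, 21.7 and 17.4 CPM in LGN, against 12.7 and 11.55 CPM in the remaining brain, the lowest pair. Lyz2 was at 7.41, 16.4 and 23.2 CPM in SC, against 6.33, 11.6 and 7.72 CPM in LGN; without SC replicate 1 it was called higher in SC than in LGN, and Lyz2 and C1qb higher in SC than in the remaining brain.

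The mix of members differed in level between retina and brain. Ccl2, Ccl3, Ccl4, Il1b, Tnf and Rgs1, a group put together after their values were seen and so not tested, made up 9.88 to 13.5% of the 35-gene sum in P3 AP-positive libraries and 17.6 to 18.8% in E15 AP-positive libraries, and 0.0642 to 0.304% in brain. Per transcript length Ccl3 averaged 617 in P3 AP-positive libraries and 1.24 length-scaled CPM in brain, and Il1b had no count in any brain library. C1qb averaged 511 in P3 AP-positive libraries and 35.6 in brain, and Mrc1 7.37 in P3 AP-positive libraries and 5.12 length-scaled CPM in brain. The order for Mrc1 turned on 1 library, since without Brn3a HET replicate 2 its P3 AP-positive mean was 4.42 length-scaled CPM, below that of brain. Stress genes induced by cell dissociation, 13 genes such as Atf3 and Zfp36, summed to 1778 to 2863 CPM in P3 AP-positive libraries, 1086 to 1776 CPM in P3 SN and 78.5 to 119.7 CPM in brain, which was dissected without dissociation and sequenced on another instrument. Their part in the result was not tested.

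**Figure D5:**
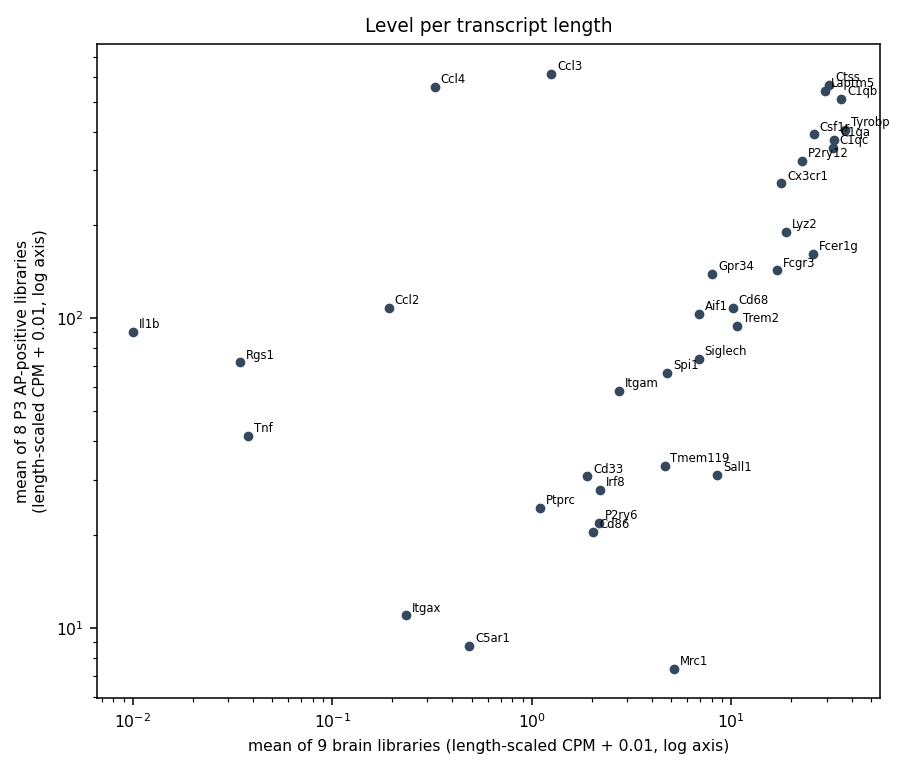
Mean level per transcript length of each gene in the 8 P3 AP-positive libraries (vertical) against the 9 brain libraries (horizontal), in length-scaled CPM plus 0.01 on log axes. Ccl3, Ccl4, Ccl2, Il1b, Tnf and Rgs1 lie to the left of the other genes at like height, and Mrc1 lies lowest.

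Other gene lists were counted in the P3 AP-positive against SN comparison, each out of its genes that passed the count filter. Genes with few SN counts passed it mainly through the AP-positive libraries, and could be called higher but hardly lower. All 31 other microglia and macrophage genes rose (median 6.68). Of complement partners and receptors 9 of 10 rose, of Fc and phagocytic receptors 17 of 19 and of myeloid transcription factors 12 of 13. Of immune-receptor signalling genes linked to Tyrobp, a list that also held Apoe, 11 of 11 rose. Of other chemokines, cytokines and NF-kB response genes 17 of 18 rose, and of phagocyte activation genes 14 of 14. Of the ligands and counter-receptors 10 of 12 rose, with Csf1 at 72.1 CPM in AP-positive libraries and 7.74 CPM in SN, and Cx3cl1 at 32.4 CPM in AP-positive libraries and 8.80 CPM in SN. Tgfb2 and Tgfb3 fell.

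Markers of other cells were counted in the same comparison, in which 27.3% of all genes were called higher. Border-associated macrophage markers rose for 8 of 8 tested and summed to 15.1 to 147 CPM in P3 AP-positive libraries, against 2.25 to 5.02 CPM in SN. The highest sum was that of Brn3a HET replicate 2, the library that stood apart for Mrc1, and the highest of the other 7 was 49.3 CPM. Of the 10 markers on this list, 4 had no count in the P3 SN libraries. Any of these that were tested could be called higher but hardly lower. Of 13 monocyte and neutrophil markers only 5 had enough counts to be tested, and all 5 rose. The list summed to 20.8 to 79.6 CPM in AP-positive and 0.396 to 1.27 CPM in SN libraries, and Elane was at 0 in the AP-positive libraries. With so few SN counts, a gene of this list passed the count filter mainly through the AP-positive libraries. A higher call was therefore nearly fixed for those tested. Of 13 lymphocyte markers 5 were tested and 2 rose, with Cd3g and Gzmb at 0 in the AP-positive libraries. Among the genes tested, 1 of 6 mast cell and platelet markers rose and 5 of 6 MHC class II genes. So did 2 of 7 erythroid markers and 5 of 14 endothelial and mural markers. Endothelial and mural markers summed to 97.6 to 619 CPM in AP-positive libraries and 598 to 667 CPM in SN. Ganglion cell markers rose for 16 of 16 (median 2.34) and dissociation stress genes for 8 of 13. Progenitor and Mueller glia markers summed to 899.8 to 3145 CPM in AP-positive libraries, against 3804 to 4756 CPM in SN. Their part in the members' difference was not tested.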

How the data were processed

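Poly(A) RNA was measured by stranded RNA-seq in 27 libraries, retina as 76-base single-end and brain as 125-base paired-end reads, per the labels' protocols. The submitters' processing notes name Trimmomatic 0.32, Bowtie2 2.2.1, eXpress 1.3.1 and GRCm38.p3. The authors deposited estimated counts per transcript. These were summed per gene, rounded to whole numbers and tested with the quasi-likelihood F-test of edgeR 4.0.16 under R 4.3.3 (TMM; genes kept by filterByExpr at a minimum of 10 counts; Benjamini-Hochberg over all genes tested) in 3 fits: 18 retinal libraries with SN pooled over genotypes per age, 12 AP-positive libraries, and 9 brain libraries. Groups came from the titles. Per-length levels divide counts by transcript length, for transcripts of at least 200 bases. 27 date-like gene symbols were restored from their gene identifiers. Intervals and floors of 3 counts cover counting error only. The script was tested on simulated data.

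The members and lists were chosen with earlier results of these data known. All 35 members could be named, from each other list up to 4 genes by smallest adjusted p, and every ligand and counter-receptor. Alternatives were median-of-ratios scaling, no count filter, DESeq2 1.42.0, a replicate block, a fit of the compared groups alone, and leaving out each library. Replicate numbers were taken to pair SC with LGN, since the deviations of same-numbered libraries correlated at 0.311, 0.145 and 0.346. The SC against LGN counts above still come from a fit without this pairing, and the replicate block was run only as an alternative. The other groups share only 2 numbers and were not taken as paired. Among them, the same-numbered Brn3b HET and Brn3b KO E15 AP-positive libraries correlated at 0.384. SN libraries were not examined for this. Overlapping genes were found for 7 members (Cx3cr1, Csf1r, P2ry12, Gpr34, Irf8, Ctss and Ccl2), and the strand setting of the counting is not given in the sources used here.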

Additional observations from a re-analysis of the deposited data

Results flagged for a closer look

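Libraries far from the rest were sought in 3 sets pooled over genotypes: 8 P3 AP-positive, 4 E15 AP-positive and 4 P3 SN libraries. In 108 tests 7 stood apart. No chance rate is given, since the sets mix genotypes and some hold mostly libraries at 0. Mrc1 was at 72.3 CPM in Brn3a HET P3 AP-positive replicate 2, where the next highest of the 8 libraries had 18.4 CPM. At E15, Brn3b HET AP-positive replicate 2 was highest for Tyrobp, at 39.3 CPM with the next at 28.5 CPM, and for Irf8, at 16.8 CPM with the next at 10.7 CPM. Among P3 SN libraries, Brn3b HET stood apart for Spi1 at 0.613 CPM (next 0.0528 CPM), Itgax at 0.0919 CPM and C5ar1 at 0.0306 CPM, and Brn3b KO for Cd86 at 0.0793 CPM, where the other libraries had 0 for the last 3 genes. For Itgax, C5ar1 and Cd86 the flag was fixed by 1 library holding the only counts, which were 3, 1 and 3.

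The difference between the AP-positive and SN fractions was larger at P3 than at E15 for Cd68, by 1.29 on the log2 scale (edgeR adjusted p = 0.0290), and for Sall1, by 1.97 (edgeR adjusted p = 0.00615). Over all genes 3.71% were called larger and 3.16% smaller. The Cd68 call was lost in several omissions of 1 library, and the Sall1 call in none. In SN, Sall1 was at 3.83 and 2.79 CPM at E15, above its 1.01 to 2.38 CPM at P3.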

How the results depend on the processing

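All counts here are of the 35 members (28 in brain) called. They stand without the share of all genes called in the same setting. A changed count therefore does not show whether the members moved or more or fewer genes were called throughout. The 35 higher in AP-positive than SN libraries were called under every alternative run at both ages, and the 34 lower in Brn3b KO than Brn3a KO were 34 or 35 in each. For Brn3b KO against HET at P3 the 24 lower calls became 19 with median-of-ratios scaling, 32 without the filter, 33 with DESeq2, 16 with the replicate block and 0 with the compared groups alone, and 0 to 20 leaving out 1 library. For Brn3b HET against Brn3a HET the 2 lower calls became 5 without the filter, 8 with DESeq2, 0 with the replicate block, 11 with the compared groups alone and 0 in each omission. With DESeq2 the age comparison in Brn3b KO gave 20 higher and 1 lower, the interaction with age 3 lower, the Brn3b minus Brn3a effect 19 lower, SN by age 14 higher, the fraction difference by age 2 smaller, and SC and LGN over the remaining brain 1 each. Without the filter SN by age gave 10 higher, the Brn3b minus Brn3a effect 2 lower and KO by age 1 lower. The replicate block gave 1 lower in KO by age and 1 higher in LGN over the remaining brain (C1qc), and changed no call in SC against LGN. With the compared groups alone SN by age gave 0 higher and 0 lower, and the fraction difference by age 1 larger. Leaving out 1 library gave 1 to 3 larger and 0 to 1 smaller for the fraction difference by age, 1 to 16 higher and 0 to 2 lower for SN by age, 26 to 32 higher for HET by age, 3 to 14 higher and 0 to 1 lower for KO by age, 0 to 1 for SC over LGN and 0 to 2 for SC over the remaining brain. The cause was not tested in any of these. With the replicate numbers of 1 group exchanged, an alternative chosen after seeing the data, 34 members were called in Brn3b KO against Brn3a KO and 30 in HET by age. The P3 AP-positive mean of Mrc1, 7.37 length-scaled CPM, was 4.42 without Brn3a HET replicate 2, also chosen after seeing the data. With 2 libraries in most groups and SN levels of a few counts, small differences were not detectable at this depth.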
